A study of Mus musculus with 18 samples.

Results

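The genes described here are the nuclear-encoded subunits of the oxidative phosphorylation machinery, measured by RNA-seq in thymic epithelial cells, the stromal cells that guide T cell development. They were chosen by symbol, as genes named Ndufa, Ndufb, Ndufc, Ndufs or Ndufv with a number, Sdha to Sdhd, Uqcr, Cox4 to Cox8 with a letter, or Atp5. Symbols marked as pseudogenes (-ps) or as complex I assembly factors (Ndufaf) were left out. This gave 89 of the 27179 genes in the files, 42 in complex I, 4 in complex II, 8 in complex III, 18 in complex IV and 17 in complex V. Because the rule reads names, 2 of the 42 complex I entries are pseudogenes in the RefSeq table (Ndufa11b and Ndufs6b), and true subunits with other names, such as Cyc1 of complex III and Ndufab1 of complex I, are not counted. The 6 groups came from C57BL/6 mice that were wildtype (WT) or knockout (KO) for Kat7, a histone lysine acetyltransferase. From each of 3 WT pools of mice (pools 1 to 3) and 3 KO pools (pools 4 to 6), cortical thymic epithelial cells (cTEC) and medullary cells with high (mTEChi) or low (mTEClo) MHC class II were sorted, giving 3 libraries per group and 18 in all. The age of the mice, the cells in which Kat7 was deleted and the driver of the deletion are not stated in the labels, and each library stands for a pool of mice rather than 1 animal.

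Oxidative phosphorylation takes place in the inner mitochondrial membrane. Complexes I (NADH dehydrogenase) and II (succinate dehydrogenase) feed electrons into ubiquinone, complex III passes them to cytochrome c, and complex IV (cytochrome c oxidase) passes them to oxygen. Complexes I, III and IV pump protons, and complex V (ATP synthase) uses the gradient to make ATP. Most subunits are encoded in the nucleus and imported, while a few core subunits of complexes I, III, IV and V are encoded in mitochondrial DNA, and complex II is wholly nuclear. Medullary cells with high MHC class II hold the mature cells that express Aire and display antigens of other organs, and cTEC support positive selection of thymocytes.

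Library totals ran from 3554089 to 20054360 counts. Kat7 itself was at 38.6 to 83.4 CPM (counts scaled to a common library size) with WT and 0.765 to 4.16 CPM with KO genotype, 9 libraries each, with log2 fold changes of -4.47 in mTEChi, -5.28 in mTEClo and -4.50 in cTEC. The epithelial marker Epcam was at 790.1 to 1575 CPM in the 18 libraries. Aire was at 1096, 1225 and 1229 CPM in WT mTEChi and at 45.4, 28.3 and 75.8 CPM in WT cTEC. Psmb11, the proteasome subunit particular to cortical cells, was at 278, 277 and 142 CPM in WT cTEC and at 22.2, 20.4 and 19.8 CPM in WT mTEChi. In KO, Aire was at 693, 633 and 703 CPM in mTEChi and 55.1, 38.0 and 24.8 CPM in mTEClo, and Psmb11 at 917, 607 and 429 CPM in cTEC and 105, 79.7 and 88.6 CPM in mTEChi. The MHC class II gene H2-Aa was at 7836, 7638 and 7196 CPM in WT and 4876, 5051 and 5148 CPM in KO mTEChi, against 2174, 2313 and 2129.6 and 1467, 1515 and 1278 CPM in mTEClo. A library that stood apart was the KO mTEChi library of pool 4, and the WT cTEC libraries of pools 1 and 2 were also low in the genes described here. Days of sorting and sequencing were not given, so the genotype and any batch of the pools cannot be told apart.

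Of the 89 genes, 85 had enough counts to be tested. The other 4 were Ndufb11b, which had no counts in any library, Cox8c, a testis isoform of complex IV with counts in 1 library only (0.0759 CPM, in KO mTEChi), Uqcr11, a small subunit of complex III at 0 to 0.198 CPM, and Cox7b2, a testis isoform at 0 to 1.31 CPM. A called gene is one with an adjusted p below 0.05 in edgeR's quasi-likelihood test, adjusted by Benjamini-Hochberg over all 19364 tested genes, and values after ± in fold changes are standard errors (SE). In bulk RNA, fewer cells of a type and less RNA per cell cannot be told apart. Reads from near-identical copies (Ndufb4, Ndufb4b and Ndufb4c, Ndufa11 and Ndufa11b, Ndufs6 and Ndufs6b, and the 3 genes for the complex V c subunit, Atp5g1, Atp5g2 and Atp5g3) may be divided between family members by the counting, so these are uncertain singly.

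The machinery was abundant in every group. Per length, as TPM (counts scaled by gene length and library size) computed from the counts and the deposited gene lengths and averaged over all 18 libraries, the highest was Atp5b, the catalytic beta subunit of ATP synthase, at 1417 TPM. It was followed by Cox4i1 (1294 TPM) and Cox8a (1263 TPM), which are broadly expressed structural subunits of complex IV, and by Atp5g3 (1143 TPM), 1 of the genes for the proton-carrying c subunit. Complex I was led by Ndufa4 (1053 TPM), which other work now places in complex IV although its name puts it here, and by the accessory subunit Ndufb8 (753 TPM). Complex III was led by Uqcr10 (635 TPM) and Uqcrh (608 TPM), both small structural subunits. Complex II was led by Sdhb (429 TPM), the iron-sulfur subunit, and Sdha (264 TPM), the flavoprotein that oxidises succinate, so its most abundant transcript lay below those of the other complexes.

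The summed level of all 89 genes differed between groups. In WT it was 32560.0 ± 575 TPM in mTEChi, 25778 ± 2940.5 TPM in mTEClo and 24661 ± 4772 TPM in cTEC (mean ± SD, n = 3 each). In KO it was 30081 ± 6925 TPM in mTEChi, 31643 ± 2698 TPM in mTEClo and 33227 ± 351 TPM in cTEC. On the scale of counts, the 3 WT cTEC libraries summed to 8889 to 11327 CPM and the 3 KO cTEC libraries to 15159 to 15917 CPM, without overlap. In mTEClo the sums were 10207 to 11496 CPM in WT and 12398 to 14824 CPM in KO, again without overlap, and in mTEChi 14292 to 14715 and 11504 to 15580.0 CPM, with overlap.

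Taking for each library the median over the tested genes of the deviation from the gene's mean log2 CPM, KO cTEC lay highest at 0.30, 0.32 and 0.28 (pools 4, 5 and 6). WT mTEChi overlapped them at 0.20, 0.20 and 0.32 (pools 1, 2 and 3). KO mTEClo lay at -0.19, 0.22 and 0.10, and KO mTEChi at -0.75, 0.32 and 0.20. Within the last group the library of pool 4 was far below the other 2, which lay among those of WT mTEChi. WT mTEClo (-0.39, -0.06 and -0.08) and WT cTEC (-0.65, -0.44 and -0.06) were the lowest groups and overlapped each other. Complex II did not show the low value of pool 4 in KO mTEChi, where its 3 libraries were at 0.05, 0.15 and 0.22, while complexes I (-0.83, 0.26 and 0.18), III (-0.76, 0.36 and 0.20), IV (-0.75, 0.44 and 0.33) and V (-0.71, 0.35 and 0.20) did.

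**Figure D1:**
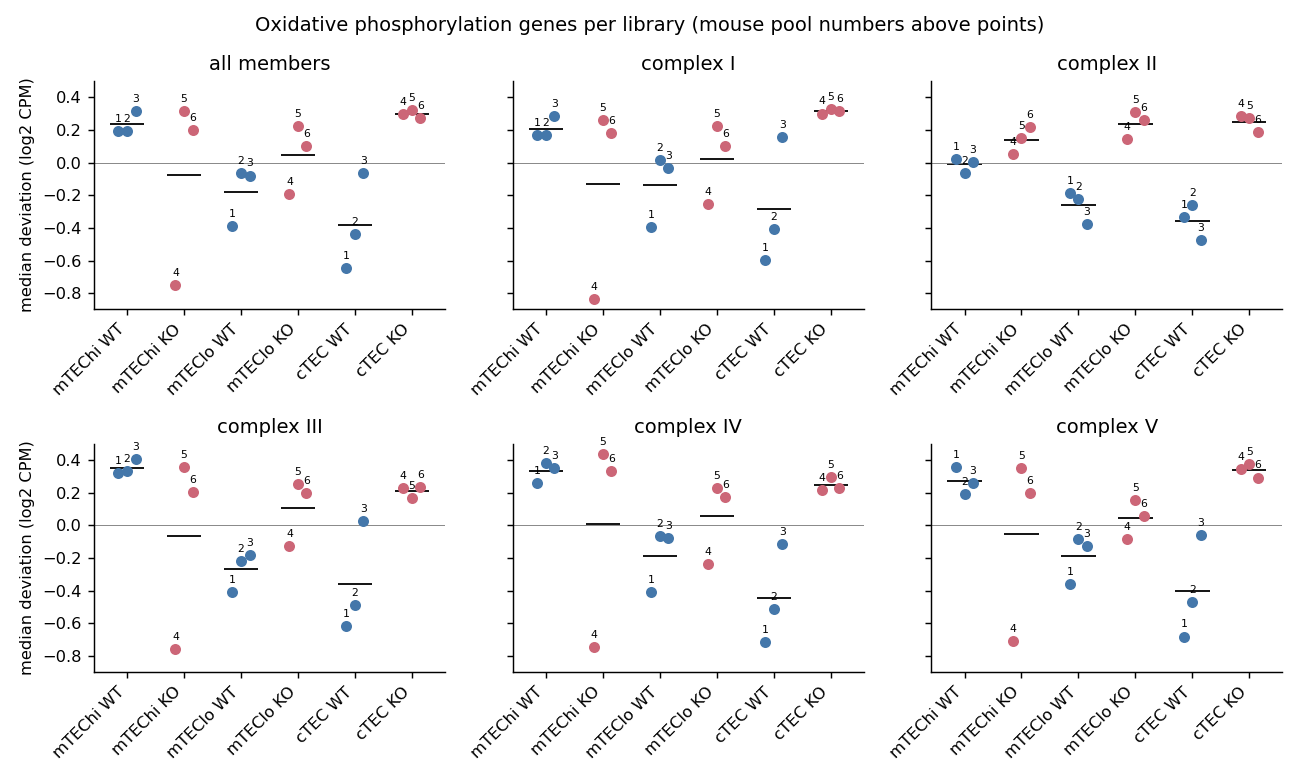
Median deviation from each gene's mean over all libraries (vertical axis, log2 CPM) for all tested genes and for each complex, by group (horizontal axis); points are the 3 libraries with their pool numbers, bars their mean, WT in blue and KO in red. KO cTEC libraries sit at 0.28 to 0.32 in the panel of all members, and the KO mTEChi library of pool 4 sits apart at -0.75.

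The comparison of subsets within WT asked how the machinery differed between cortical and medullary cells where Kat7 was intact. Against cTEC, WT mTEChi had 45 of 85 genes higher (35.9% of all genes tested were called higher), with a median log2 difference of 0.60 against 0.13 over all genes tested. After removal of the gene-length trend described further on, the median was 0.28 against 0.26 over all genes. Without WT cTEC pool 1 it was 0.40, with 35 genes higher (35.8% of all genes). In the fit of all libraries, lower calls numbered 0 (28.5% of all genes), as did genes lower at an unadjusted p below 0.05, and DESeq2 also called 0. With the pool as a replicate block, which pairs the subsets of 1 pool, 56 genes were higher (37.1% of all genes). The 45 were 19 of 41 tested genes of complex I, 2 of 4 of complex II, 4 of 7 of complex III, 12 of 16 of complex IV and 8 of 17 of complex V. Uqcrfs1, the Rieske iron-sulfur protein of complex III, had the smallest p. It was at 275, 242 and 257 CPM in the WT mTEChi libraries and at 106, 118 and 133 CPM in the WT cTEC libraries (a log2 fold change of 1.11 ± 0.10 with adjusted p = 1.89e-08). Atp5pb, the b subunit of the stator stalk of ATP synthase, was at 365, 396 and 419 CPM against 166, 199 and 174 CPM (a log2 fold change of 1.13 ± 0.11 with adjusted p = 2.25e-08). Cox4i1 was at 636, 679.7 and 734 CPM against 281, 315 and 389 CPM (a log2 fold change of 1.06 ± 0.16 with adjusted p = 1.24e-05). In each of these genes all mTEChi libraries lay above all cTEC libraries. Ndufv2, an iron-sulfur subunit of complex I, differed by 0.89 (SE 0.15, adjusted p = 3.17e-05), Ndufc2, an accessory subunit, by 1.54 (SE 0.25, adjusted p = 2.23e-05), and Sdhb by 0.60 (SE 0.10, adjusted p = 4.84e-05).

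Markers of other cells and of RNA quality also differed between the WT subsets. Macrophage and dendritic markers summed to 1559 to 1613 CPM in mTEChi, 149 to 163 CPM in mTEClo and 161 to 224 CPM in cTEC. Cell cycle markers summed to 435 to 510.2, 136 to 146 and 121 to 133 CPM in the same order. The genes read as signs of RNA quality (Rn45s, Lars2, Fos, Jun, Egr1, Atf3, Hspa1a and Hspa1b) took 2.71% to 3.39% of counts in mTEChi, 4.97% to 6.16% in mTEClo and 4.08% to 4.89% in cTEC. Their part in the differences between subsets was not tested.

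WT mTEChi against WT mTEClo gave 22 genes higher (32.6% of all genes) and 1 lower (26.7%), with a median log2 difference of 0.41 against 0.08 over all genes. With the pool as a replicate block, 42 genes were higher (33.4% of all genes), and DESeq2 called 38 (34.8% of all genes). Uqcrfs1, at 140.2, 136 and 148 CPM in WT mTEClo, again had the smallest p (a log2 fold change of 0.87 ± 0.10 with adjusted p = 7.53e-07), followed by Atp5pb (0.74, adjusted p = 7.74e-06). The gene called lower was Ndufs3, a core subunit of complex I, at 56.5, 52.7 and 52.5 CPM in mTEChi and 63.6, 69.5 and 70.2 CPM in mTEClo (a log2 fold change of -0.33 ± 0.11 with adjusted p = 0.0157). It was named here after its value was seen. Its call was lost with RLE size factors, with DESeq2, and without WT mTEChi pools 2 or 3 or WT mTEClo pool 2. Between WT mTEClo and WT cTEC, 12 genes were higher in mTEClo (13.0% of all genes) and 1 was lower (14.4%), with a median of 0.22 against 0.03, a share of calls near that of all genes. The median was 0.03 in both the members and all genes after removal of the length trend, 0.08 without WT cTEC pool 1, 0.12 without WT mTEClo pool 2 and 0.41 without WT cTEC pool 3. Ndufs8, an iron-sulfur subunit of complex I, was at 205, 185 and 177 CPM in WT mTEClo and 121, 143 and 126 CPM in WT cTEC (a log2 fold change of 0.54 ± 0.12 with adjusted p = 0.0024). The gene lower in mTEClo was Cox6b2, treated below with the other tissue-restricted isoforms. These 3 comparisons share the WT libraries in pairs. The 12 higher calls fell to 5 without cTEC pool 1 (11.2% of all genes), 8 without cTEC pool 2 (13.6%) and 9 without cTEC pool 3 (12.2%). They fell to 5 without mTEClo pool 1 (9.67%), 4 without mTEClo pool 2 (9.35%) and 7 without mTEClo pool 3 (9.55%).

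The comparison of KO with WT in cTEC asked what the loss of Kat7 changed in cortical cells. Of 85 genes, 51 rose (22.3% of all genes tested) and 1 fell (26.7%). The median log2 fold change was 0.69, against -0.02 over all genes. Every complex took part: 24 of 41 tested genes of complex I rose, 3 of 4 of complex II, 4 of 7 of complex III, 9 of 16 of complex IV and 11 of 17 of complex V, and complex medians were 0.69, 0.71, 0.43, 0.72 and 0.64. Fitted values were above 0 for 84 of the 85 genes, the exception being Cox4i2. All KO libraries lay above all WT libraries for 56 genes and below them for 1 (25.5% of all genes tested in each direction). Leaving out 1 library at a time gave 35 to 68 genes higher (18.5% to 22.1% of all genes).

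Complex I contains a core that carries out electron transfer, to which the iron-sulfur subunit Ndufs8 belongs. Ndufs8 was at 121, 143 and 126 CPM in WT cTEC and at 263, 244 and 233 CPM in KO cTEC (a log2 fold change of 0.92 ± 0.12 with adjusted p = 3.49e-06). Ndufs7, another iron-sulfur subunit, was at 185, 207 and 196 CPM and 375, 369 and 332 CPM (a log2 fold change of 0.87 ± 0.13 with adjusted p = 1.31e-05). Ndufa10, an accessory subunit of the membrane arm, was at 123, 131 and 133 CPM and 245, 214 and 224 CPM (a log2 fold change of 0.82 ± 0.09 with adjusted p = 4.13e-07). In each of the 3 genes, the lowest KO library was above the highest WT library. Ndufa4, the most abundant gene under complex I, went from 145, 175 and 209 to 258, 256 and 259.9 CPM with an adjusted p of 0.0497, a call lost without WT cTEC pools 1 or 2 or KO cTEC pools 4, 5 or 6, with RLE size factors, with library totals only, with DESeq2 and after removal of the length trend (adjusted p 0.015 to 0.688 over all settings).

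In complex II, the iron-sulfur subunit Sdhb was at 154, 170.2 and 164 CPM in WT and 319.5, 276 and 257 CPM in KO cTEC (a log2 fold change of 0.81 ± 0.10 with adjusted p = 2.62e-06). The membrane anchor Sdhc was at 117, 124 and 123 and 202, 173 and 182 CPM (a log2 fold change of 0.61 ± 0.10 with adjusted p = 2.78e-05). Sdha did not pass the test in cTEC (log2 fold change 0.27, adjusted p = 0.111), with libraries at 387, 381 and 284 CPM in WT and 389.8, 423 and 453 CPM in KO. Complex II thus rose in its iron-sulfur subunit and both anchors. In complex III, the core protein Uqcrc2 was at 130.4, 146 and 146 and 248, 229 and 229 CPM (a log2 fold change of 0.74 ± 0.10 with adjusted p = 4.98e-06). Uqcrfs1 was at 106, 118 and 133 and 196, 195 and 192 CPM (a log2 fold change of 0.70 ± 0.10 with adjusted p = 1.37e-05). The small subunit Uqcr10 and the core protein Uqcrc1 made up the other 2 calls, at 0.90 and 0.43, Uqcrc1 being named after its value was seen.

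Complex IV had its smallest p in Cox7a2l, which helps to join complexes III and IV into supercomplexes. It was at 48.1, 50.3 and 54.9 CPM in WT and 104, 92.4 and 95.3 CPM in KO cTEC (a log2 fold change of 0.93 ± 0.11 with adjusted p = 1.35e-06). Cox5b, a zinc-binding subunit, rose by 0.75 (SE 0.22, adjusted p = 0.00735), and Cox4i1 by 0.55 (SE 0.16, adjusted p = 0.00781), from 281, 315 and 389 to 516, 458 and 471 CPM. In complex V, Atp5o, the protein that joins the stalk to the catalytic head, was at 91.5, 98.2 and 110.4 CPM and 233, 198 and 194 CPM (a log2 fold change of 1.06 ± 0.14 with adjusted p = 4.53e-06). It had the highest fold change among called genes outside the restricted isoforms. Atp5d and Atp5c1, of the central rotor, rose by 0.89 (SE 0.10, adjusted p = 3.48e-07) and 0.77 (SE 0.11, adjusted p = 7.34e-06). The genes with fitted changes nearest to 0 were small subunits such as Cox6c (0.06), Atp5k (0.18) and Cox7c (0.19), which did not pass the test and were chosen for mention after their values were seen. In these genes, WT cTEC pool 3 lay above all KO libraries, and WT pools 1 and 2 lay below them. Cox6c was at 451, 509 and 1036 TPM in WT and 559, 609 and 649 TPM in KO cTEC.

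Markers of other cells moved with the genotype in cTEC. The 14 thymocyte markers summed to 63.7 to 155 CPM in WT and 299 to 487 CPM in KO cTEC, and 10 of 14 rose (22.3% of all genes did). The 5 erythroid markers, of which 4 were tested, summed to 26.5 to 113 and 9.31 to 17.6 CPM, and the 14 macrophage and dendritic markers to 161 to 224 and 54.5 to 67.6 CPM. The mural and fibroblast markers summed to 1375 to 1546 and 2476 to 2622 CPM, mostly Dcn. Cell cycle markers summed to 121 to 133 and 185 to 214 CPM, 5 of 8 rising (22.3% of all genes did). The genes read as signs of RNA quality, which include the ribosomal RNA precursor Rn45s and genes that rise on cell dissociation, together took 4.08% to 4.89% of counts in WT cTEC and 2.81% to 3.32% in KO cTEC. The part of these differences in the rise of the machinery was not tested.

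In mTEClo, KO libraries had 16 genes higher (18.9% of all genes) and 1 lower (15.8%), so the share that rose was close to that of all genes while few fell. The libraries did not overlap for 26 genes with KO higher (26.8% of all genes) and for 1 with KO lower (22.5%). The median log2 fold change was 0.23, against 0.01 over all genes. It was 0.09 without WT mTEClo pool 1 and 0.11 without KO mTEClo pool 5. The 16 were 6 of 41 tested genes of complex I, 3 of 4 of complex II, 2 of 7 of complex III, 1 of 16 of complex IV and 4 of 17 of complex V. Ndufa9, a subunit near the ubiquinone site of complex I, was at 149, 129.6 and 125 CPM in WT and 190.2, 212 and 209 CPM in KO mTEClo (a log2 fold change of 0.60 ± 0.11 with adjusted p = 0.000189). Sdha was at 379, 294 and 303 CPM and 513, 479 and 555 CPM (a log2 fold change of 0.66 ± 0.14 with adjusted p = 0.00087). Uqcrfs1 was at 140.2, 136 and 148 CPM and 168, 208 and 189.5 CPM (a log2 fold change of 0.42 ± 0.10 with adjusted p = 0.00376). In all 3 genes the groups did not overlap. Sdhc (0.40), Ndufa10 (0.34), Ndufs1 (0.41) and Atp5d (0.39) also rose. Most of the 16 were longer genes: 14 of the 23 tested genes over 1000 bases rose, where 20.7% of all such genes did, against 2 of 62 at or under 1000 bases, where 6.48% did. The genes read as signs of RNA quality took 4.97% to 6.16% of counts in WT mTEClo and 2.23% to 2.75% in KO. Thymocyte markers summed to 35.1 to 48.0 CPM in WT and 62.6 to 76.3 CPM in KO mTEClo, and the 13 genes of mitochondrial DNA to 17132 to 24055 and 12243 to 14878 CPM. None of these overlapped between the groups, and their part was not tested.

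In mTEChi the genes did not move one way. Of 85, 6 rose (17.1% of all genes) and 9 fell (19.3%), both below the share of all genes, and the median log2 fold change was -0.24 against -0.11 over all genes. DESeq2 called 5 higher and 13 lower (15.4% and 19.9% of all genes). The libraries did not overlap for 10 genes with KO higher (24.5% of all genes) and 20 with KO lower (31.4%). Those that rose were Ndufs8, Sdha, Sdhd, Uqcrc2, Atp5a1 and Atp5b. Those that fell were Ndufb8, Ndufb10, Ndufv2 and Ndufa4l2 under complex I, Cox4i1, Cox4i2, Cox6a2 and Cox6b2 of complex IV, and Atp5pb of complex V. Ndufs8 and Ndufv2 were named after their values were seen. Cox4i1 was at 636, 679.7 and 734 CPM in WT (pools 1, 2 and 3) and 335, 528 and 512 CPM in KO mTEChi (pools 4, 5 and 6; a log2 fold change of -0.58 ± 0.16 with adjusted p = 0.00943). Ndufb8 was at 328, 328 and 359 CPM and 149.9, 280.2 and 279.7 CPM (a log2 fold change of -0.52 ± 0.18 with adjusted p = 0.0311). Atp5pb was at 365, 396 and 419 CPM and 314, 364 and 297 CPM (a log2 fold change of -0.28 ± 0.11 with adjusted p = 0.0484). For all 3 genes every KO library was below every WT library, and for Cox4i1 and Ndufb8 the library of pool 4 was the lowest. The calls of Ndufb8 and Atp5pb were fragile: that of Ndufb8 was lost without WT mTEChi pools 1, 2 or 3 or KO mTEChi pool 4, with only the compared groups fitted and after removal of the length trend (adjusted p 0.00951 to 0.188 over all settings), and that of Atp5pb was lost without WT mTEChi pools 1, 2 or 3 or KO mTEChi pools 4 or 6, with no low-count filter and with only the compared groups fitted (adjusted p 0.00632 to 0.214 over all settings).

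Without the KO mTEChi library of pool 4, 4 genes were higher (13.5% of all genes), 1 was lower (13.2%), which was Cox4i2, and the median log2 fold change was 0.04. Cox4i1 then had a log2 fold change of -0.38 (adjusted p = 0.0709, range over its alternatives 0.000935 to 0.0709). Leaving out a WT library instead left 3 higher and 5 lower without pool 1 (15.1% of all genes each way), 4 and 2 without pool 2 (14.6% and 13.6%), and 2 and 1 without pool 3 (12.2% and 12.4%). The mTEChi groups also differed in markers of other cells: macrophage and dendritic markers summed to 1559 to 1613 CPM in WT and 869 to 1040.3 CPM in KO, muscle-like markers to 244 to 288 and 131 to 157 CPM, and cell cycle markers to 435 to 510.2 and 314 to 405 CPM. The genes read as signs of RNA quality took 2.71% to 3.39% of counts in WT and 2.04% to 2.22% in KO mTEChi. Their part in the calls was not tested.

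**Figure D2:**
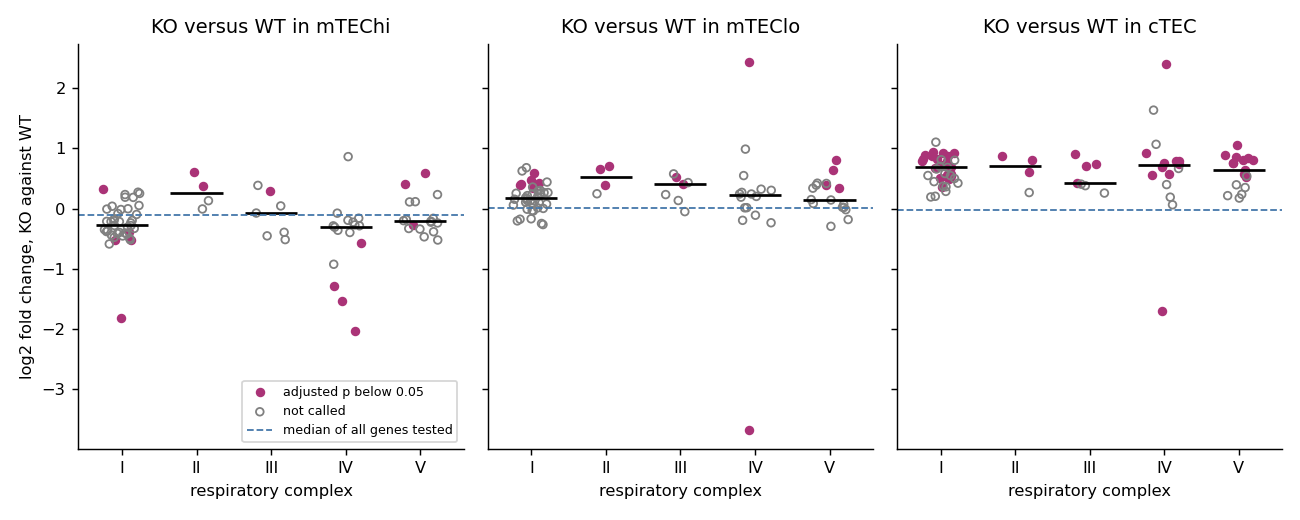
Log2 fold change of KO against WT (vertical axis) for each tested gene by respiratory complex (horizontal axis) in the 3 subsets; filled points passed an adjusted p of 0.05, black bars are complex medians and the dashed line is the median of all genes tested. In cTEC all complex medians lie at 0.43 to 0.72, while in mTEChi 4 of 5 lie below 0.

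A small set, 4 of the 85 genes, rose in KO in all 3 subsets: Atp5b, Atp5a1, Uqcrc2 and Sdhd. How many of all genes tested did so was not counted. The 4 genes were over 1000 bases (1879, 2432, 1882 and 1285 bases in that order). Of all genes over 1000 bases, 19.1% rose in mTEChi, 20.7% in mTEClo and 22.6% in cTEC. Atp5b and Atp5a1 encode the catalytic beta and alpha subunits that form the head of ATP synthase. Atp5b (Entrez 11947, chr10:128083307-128090388 on GRCm38.p6) was at 1181, 1296 and 1088 CPM in WT and 2174, 1696 and 1511 CPM in KO mTEChi (a log2 fold change of 0.59 ± 0.14 with adjusted p = 0.00236). In mTEClo it was at 1157, 894 and 819.6 and 1796, 1657 and 1561 CPM (a log2 fold change of 0.80 ± 0.14 with adjusted p = 0.00013). In cTEC it was at 1029, 959 and 935 and 1741, 1649.6 and 1709 CPM (a log2 fold change of 0.80 ± 0.14 with adjusted p = 7.18e-05). The KO libraries lay above all WT libraries of their subset in each case, and in mTEChi the highest was pool 4, the library that was low in most of the other genes. Atp5b kept its call under 14 of 14 settings in mTEChi, 13 of 13 in mTEClo and 14 of 14 in cTEC.

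Atp5a1 was at 720.5, 713 and 672 and 1103, 885 and 813 CPM in mTEChi (a log2 fold change of 0.41 ± 0.12 with adjusted p = 0.00973). It was at 612, 521 and 478 and 863, 852 and 804 CPM in mTEClo (a log2 fold change of 0.64 ± 0.12 with adjusted p = 0.000239) and at 716, 639 and 640.2 and 1045, 987 and 954 CPM in cTEC (a log2 fold change of 0.58 ± 0.12 with adjusted p = 0.000363). The mTEChi call was lost without KO mTEChi pool 4 and after removal of the length trend (adjusted p 0.00425 to 0.141 over all settings). Uqcrc2 rose by 0.30, 0.52 and 0.74 in mTEChi, mTEClo and cTEC on the log2 scale. Sdhd, the other membrane anchor of complex II, was at 9.41, 11.05 and 11.3 CPM in WT and 17.7, 14.6 and 16.8 CPM in KO mTEChi (a log2 fold change of 0.62 ± 0.21 with adjusted p = 0.031), and rose by 0.71 in mTEClo and 0.88 in cTEC. In mTEChi the call of Uqcrc2 was lost without WT mTEChi pools 1 or 3 or KO mTEChi pools 4 or 5, with RLE size factors and after removal of the length trend (adjusted p 0.0097 to 0.206 over all settings), and that of Sdhd was lost without WT mTEChi pools 1, 2 or 3 or KO mTEChi pools 4 or 6 and with limma-voom and a random replicate block (adjusted p 0.00817 to 0.0848 over all settings). In mTEClo that of Sdhd was lost without WT mTEClo pool 3 (adjusted p 0.01 to 0.0691 over all settings). The 3 comparisons share no library but come from the same pools.

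**Figure D3:**
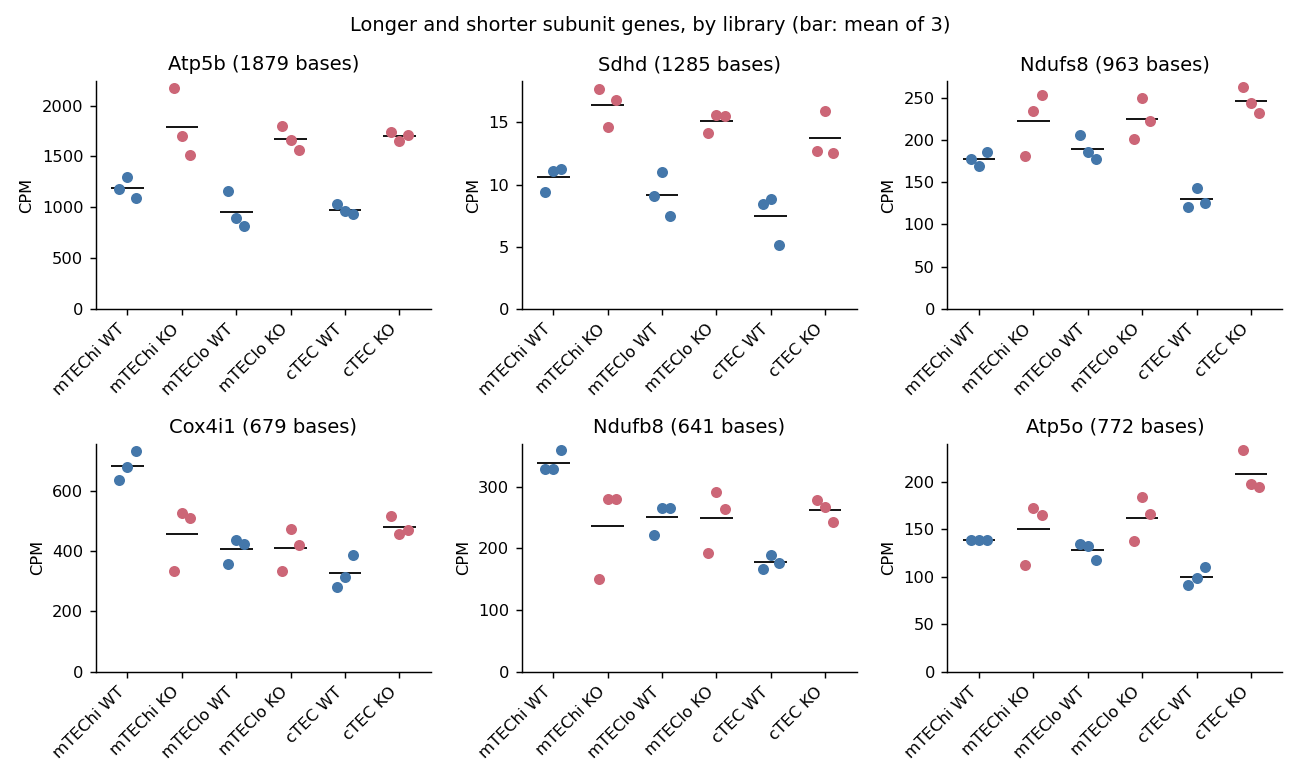
CPM (vertical axis, from 0) of 6 subunit genes in each group (horizontal axis); points are the 3 libraries, bars their mean, WT in blue and KO in red, with gene length in the panel title. Atp5b is higher in all KO libraries of every subset, whereas Cox4i1 and Ndufb8 are lower in KO mTEChi and higher in KO cTEC.

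Some complex IV subunits exist as a broad form and a form restricted to a few tissues, such as heart, muscle, lung or testis. Of 8 such restricted isoforms listed, with Ndufa4l2 among them, 6 were tested. In mTEChi 4 of the 6 fell in KO (19.3% of all genes did). Cox6a2, among these, passed the low-count filter only through mTEChi libraries. In mTEClo 1 rose and 1 fell (18.9% and 15.8% of all genes), and in cTEC 1 rose and 1 fell (22.3% and 26.7%), shares near those of all genes, while of their 7 broad partners 1 fell in mTEChi and 6 rose in cTEC. Restricted forms were rare: they summed to 20.5 to 25.9 CPM in WT mTEChi, against 2393 to 2519 CPM for the broad partners.

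Cox4i2 is the lung isoform of subunit 4, also known from pericytes, and replaces Cox4i1 in an oxygen-sensitive enzyme (Entrez 84682, chr2:152753916-152765039 on GRCm38.p6). It was at 6.37, 6.77 and 7.05 CPM in WT and 2.51, 1.90 and 2.65 CPM in KO mTEChi (a log2 fold change of -1.53 ± 0.47 with adjusted p = 0.016). In mTEClo it was at 2.25, 0.907 and 0.744 CPM in WT and 0.0676, 0 and 0.204 CPM in the KO libraries (a log2 fold change of -3.69 ± 0.66 with adjusted p = 0.000213), and in cTEC at 0.873, 0.955 and 1.17 and 0.330, 0.194 and 0.368 CPM (a log2 fold change of -1.71 ± 0.55 with adjusted p = 0.0147). It was the only gene of the 85 called lower in all 3 subsets, and no KO library reached a WT library of its subset. How many of all genes tested were called lower in all 3 was not counted. The cTEC call was lost without KO cTEC pool 5 (adjusted p 0.00451 to 0.0632 over all settings), and the mTEChi call was lost without WT mTEChi pools 2 or 3 or KO mTEChi pool 5 and after removal of the length trend (adjusted p 0.000406 to 0.0727 over all settings).

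Levels of the pericyte and smooth muscle markers Rgs5 and Tagln are set beside Cox4i2, and the list that holds them went both ways. Rgs5 was at 77.5, 76.4 and 66.7 CPM in WT and 37.5, 43.0 and 28.7 CPM in KO mTEChi, at 82.3, 83.5 and 90.6 and 12.0, 10.9 and 10.2 CPM in mTEClo, and at 28.2, 37.1 and 47.9 and 8.25, 5.31 and 5.15 CPM in cTEC. Tagln fell by 2.96 in mTEClo and by 2.35 in cTEC on the log2 scale, and was at 31.3, 32.1 and 29.7 CPM in WT and 32.6, 26.9 and 26.2 CPM in KO mTEChi. Of the 11 markers of mural cells and fibroblasts, 3 fell and 3 rose in mTEChi, 4 fell and 3 rose in mTEClo, and 7 fell and 2 rose in cTEC. Of all genes, 19.3% fell and 17.1% rose in mTEChi, 15.8% and 18.9% in mTEClo, and 26.7% and 22.3% in cTEC. The summed level of the 11 markers was 384 to 406 CPM in WT and 646 to 748 CPM in KO mTEChi. It was 1177 to 1335 and 764 to 881 CPM in mTEClo, and 1375 to 1546 and 2476 to 2622 CPM in cTEC. Their part in the fall of Cox4i2 was not tested.

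Cox8b, the heart and muscle isoform of subunit 8, moved the other way (Entrez 12869, chr7:140898942-140900446 on GRCm38.p6). It was at 0.817, 1.17 and 1.93 CPM in WT and 6.96, 8.22 and 5.51 CPM in KO mTEClo (a log2 fold change of 2.43 ± 0.41 with adjusted p = 0.000109). In cTEC it was at 0.873, 1.01 and 1.81 and 6.87, 7.64 and 5.47 CPM (a log2 fold change of 2.41 ± 0.38 with adjusted p = 2.84e-05), and in mTEChi at 1.66, 2.38 and 2.30 and 2.03, 4.55 and 5.30 CPM, which did not pass the test (log2 fold change 0.86, adjusted p = 0.101). Both calls held under every alternative run. Its broad partner Cox8a was at 191, 222 and 348 CPM in WT and 420.1, 461 and 442 CPM in KO cTEC (a log2 fold change of 0.80 ± 0.24 with adjusted p = 0.00967), a call lost without WT cTEC pool 1 (adjusted p 0.000851 to 0.0509 over all settings). Of 9 markers of muscle-like medullary cells, 4 fell in mTEClo (15.8% of all genes did) and 5 fell in cTEC (26.7%). Their sum went from 139.7 to 148 to 60.2 to 76.7 CPM in mTEClo and from 83.2 to 106 to 8.89 to 19.8 CPM in cTEC, so Cox8b and the sum of these markers moved in opposite directions.

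The other restricted forms that fell in KO mTEChi were Cox6a2, Cox6b2 and Ndufa4l2. Cox6a2, the heart and muscle form of subunit 6a, was at 0.554, 3.09 and 4.47 CPM in WT and 0.359, 0.911 and 0.736 CPM in the KO libraries (a log2 fold change of -2.04 ± 0.69 with adjusted p = 0.0259), with WT pool 1 among the KO libraries. Cox6b2, the testis form of subunit 6b, was at 6.65, 7.25 and 8.41 and 2.03, 3.57 and 3.53 CPM (a log2 fold change of -1.29 ± 0.42 with adjusted p = 0.023). Ndufa4l2, a hypoxia-inducible relative of Ndufa4, was at 2.49, 1.31 and 1.63 and 0.239, 0.304 and 1.03 CPM (a log2 fold change of -1.82 ± 0.65 with adjusted p = 0.0342). The call of Cox6a2 was lost without WT mTEChi pools 2 or 3 or KO mTEChi pools 4 or 6 (adjusted p 0.012 to 0.175 over all settings), that of Cox6b2 was lost without WT mTEChi pools 2 or 3 or KO mTEChi pool 4 (adjusted p 0.00209 to 0.104 over all settings), and that of Ndufa4l2 was lost without WT mTEChi pools 1 or 3 or KO mTEChi pools 4 or 5 and after removal of the length trend (adjusted p 0.0134 to 0.138 over all settings). Cox7a1, the muscle form of subunit 7a, did not pass the test in any subset (adjusted p from 0.151 to 0.235). Within WT, 4 of the 6 were higher in mTEChi than in mTEClo (32.6% of all genes were) and 5 of the 6 higher than in cTEC (35.9%). Cox6a2 is in both counts. It passed the low-count filter only through mTEChi libraries, so it was tested because it was high there. Cox6a2 is thus no support for a higher level of restricted forms in mTEChi. In mTEClo Cox6b2 was at 1.43, 1.42 and 1.78 CPM, and in cTEC at 1.75, 2.44 and 6.71 CPM, with pool 3 apart from the others. Against cTEC, Cox6a2 had a fitted difference of 5.87 (SE 0.90, adjusted p = 1.13e-05), where 2 of the 3 cTEC libraries had no counts, so the fitted size depends on the prior count.

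**Figure D4:**
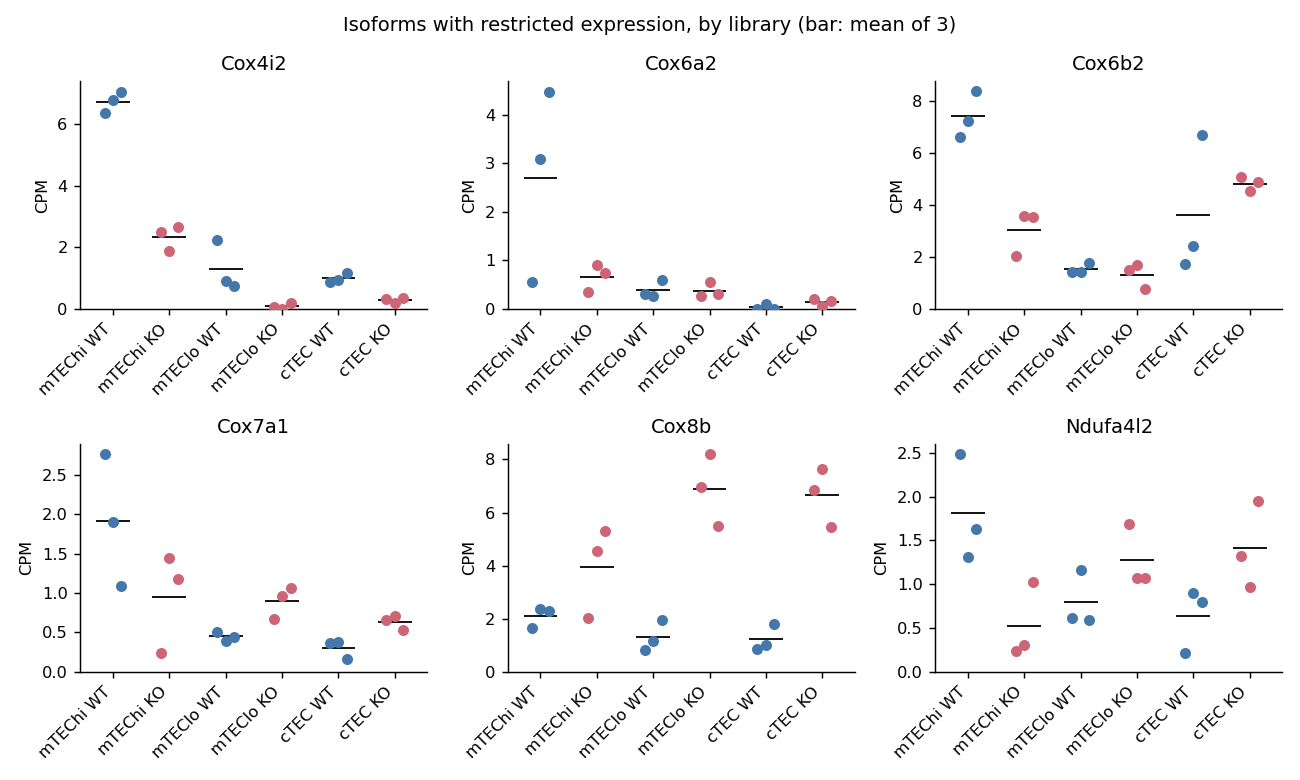
CPM (vertical axis, from 0) of the 6 tested isoforms with restricted expression in each group (horizontal axis); points are the 3 libraries, bars their mean, WT in blue and KO in red. Cox4i2 is lower in the KO libraries of all subsets, and Cox8b is higher in the KO libraries of mTEClo and cTEC.

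Promoter sequences are shown for 2 broad complex IV subunits and for the restricted isoform Cox8b, to set beside their levels. They are the 250 bases before the start site in RefSeq's GRCm38.p6 annotation, on the strand of the gene. Capitals mark exact matches, on either strand, to GCGCATGCG, the core of the palindromic site of NRF1, a regulator of respiratory genes, or to CCGGAAG, a site of ETS factors, which include the respiratory regulator GABP. Windows were available for 70 of the 89 genes. Cox6a1 lies at chr5:115348959-115349208, Cox6b1 at chr7:30626115-30626364 and Cox8b at chr7:140900447-140900696, all on the minus strand.
Cox6a1: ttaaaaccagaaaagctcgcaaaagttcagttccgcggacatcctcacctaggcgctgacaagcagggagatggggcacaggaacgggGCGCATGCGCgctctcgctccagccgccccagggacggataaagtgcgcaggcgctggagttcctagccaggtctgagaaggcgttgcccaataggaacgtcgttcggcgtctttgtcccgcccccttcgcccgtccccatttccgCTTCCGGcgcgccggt
Cox6b1: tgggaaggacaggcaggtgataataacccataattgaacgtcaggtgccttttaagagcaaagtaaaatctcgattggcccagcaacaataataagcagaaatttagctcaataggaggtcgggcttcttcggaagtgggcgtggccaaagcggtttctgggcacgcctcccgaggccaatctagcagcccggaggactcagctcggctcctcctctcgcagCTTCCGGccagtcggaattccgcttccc
Cox8b: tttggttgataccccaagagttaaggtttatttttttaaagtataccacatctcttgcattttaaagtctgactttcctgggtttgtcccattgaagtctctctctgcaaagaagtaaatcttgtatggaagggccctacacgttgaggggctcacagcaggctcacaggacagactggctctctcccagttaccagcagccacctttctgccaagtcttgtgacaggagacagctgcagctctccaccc

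Cox6a1 carries both sets of letters, the NRF1 letters on both strands at overlapping places, Cox6b1 an ETS match close to the start, and Cox8b has neither set of letters in its window. Over windows of 300 bases, from 250 before to 50 after the start, NRF1 letters were found in 8 of the 70 genes (11.4%), ETS letters in 17 (24.3%) and AAGATGGC, a site of YY1, in 10 (14.3%). Among 27025 genes with a window, the shares were 1.95%, 9.93% and 3.19%, and among 17492 protein-coding genes 2.61%, 12.9% and 3.57%. ETS letters were in 6 of 15 windows of complex V and 4 of 34 of complex I, and YY1 letters in 7 of 34 of complex I and in 3 of 15 of complex V. In complex IV, NRF1 letters were in 1 of 13 windows, ETS letters in 3 and YY1 letters in 0. Most complex IV windows thus had no match, and Cox6a1 and Cox6b1 are not typical of that complex. An ETS and a YY1 match can overlap, since the letters of the first end as those of the other begin. The broad genes Cox6a1 and Cox6b1 were at 159, 184 and 283 and 134, 152 and 258 CPM in WT cTEC and at 335, 351 and 330.2 and 287, 318 and 310.0 CPM in KO cTEC, with adjusted p of 0.0312 and 0.0259. The call of Cox6a1 was lost without WT cTEC pools 1 or 2 or KO cTEC pools 4, 5 or 6, with RLE size factors, with library totals only and after removal of the length trend (adjusted p 0.0046 to 0.124 over all settings), and that of Cox6b1 was lost without WT cTEC pools 1 or 2 or KO cTEC pools 5 or 6, with library totals only and with DESeq2 (adjusted p 0.00209 to 0.11 over all settings). A match is a description of the letters only.

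Of 16 genes for regulators of mitochondrial biogenesis, 1 rose and 4 fell in mTEChi (17.1% and 19.3% of all genes did). In mTEClo 2 fell, where 18.9% of all genes rose and 15.8% fell. In cTEC 5 rose and 3 fell (22.3% and 26.7% of all genes did). The counts are small, and their difference from all genes was not tested. Gabpa, the DNA-binding subunit of GABP, rose in KO cTEC (0.61), from 46.7, 52.3 and 30.6 to 61.7, 66.7 and 69.5 CPM. Esrra, a nuclear receptor that drives mitochondrial genes, fell there (-1.03), from 28.0, 31.9 and 26.9 to 16.2, 14.2 and 12.4 CPM. Ppargc1a, the coactivator of the same program, fell in mTEChi (-1.02), and Tfam, which maintains mitochondrial DNA, fell in mTEClo (-0.75).

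Whether the KO effect differed between subsets was tested directly by interaction terms. The effect in mTEChi was lower than that in cTEC for 46 of 85 genes (13.2% of all genes tested) and higher for 0 (18.3%), with a median difference of -0.88 against 0.01 over all genes. No gene was higher at an unadjusted p below 0.05 or by DESeq2. The 46 were 24 genes of complex I, 2 of complex II, 2 of complex III, 11 of complex IV and 7 of complex V. Cox7a2l had the smallest p, with a difference of -1.004 (SE 0.16, adjusted p = 8.7e-05). It was at 71.2, 76.6 and 82.7 CPM in WT and 74.1, 79.2 and 65.7 CPM in KO mTEChi, beside the rise in cTEC given above. Uqcrfs1 differed by -0.78 (SE 0.15, adjusted p = 0.000419) and Atp5pb by -0.80 (SE 0.15, adjusted p = 0.000428). The count was 32 (10.4% of all genes) without KO mTEChi pool 4, 29 (12% of all genes) without WT cTEC pool 1, 30 (9.47%) without WT mTEChi pool 3 and 30 (10.2%) without KO cTEC pool 4. It was 65 (13.9%) without WT cTEC pool 3 and 54 (11.7%) without KO mTEChi pool 5. With the pool as a fixed replicate block, which pairs the subsets, it was 62 (15.2%), and with a random block in limma-voom 59 (16.6%).

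The effect in mTEClo was lower than in cTEC for 10 genes (9.54% of all genes) and higher for 0 (16.4%), with 0 higher at an unadjusted p below 0.05 and 0 by DESeq2. With the replicate block by pool 21 were lower (11.7% of all genes) and 1 higher (17.5%). Without WT cTEC pool 3 the count of lower genes was 21 (10.1%). The smallest p-values belonged to Cox7a2l (-0.69), Ndufs3 (-0.64) and Ndufs7 (-0.71). Between mTEChi and mTEClo, 1 gene differed, Uqcrfs1, at -0.49 (SE 0.15, adjusted p = 0.0298), where 6.78% of all genes were called lower. It was at 246, 257 and 232 CPM in KO mTEChi, overlapping its WT libraries, while it rose in mTEClo. Higher calls numbered 0 (6.72%), with 1 at an unadjusted p below 0.05, and the replicate block gave 6 lower (8.1% of all genes). DESeq2 called 0 higher and 4 lower (8.09% and 8.37% of all genes). The call of Uqcrfs1 was lost without WT mTEChi pools 1 or 3 or WT mTEClo pools 1 or 2 or KO mTEClo pools 5 or 6 or KO mTEChi pool 6, with no low-count filter and with only the compared groups fitted (adjusted p 0.00563 to 0.104 over all settings).

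Gene length moved with these results. The 89 genes are short, with a median of 641 bases (292 to 2927) against 2536.5 over all genes tested. In KO mTEChi pool 4, genes of up to 1000 bases with a mean of at least 10 CPM were shifted as a whole, by a median of -0.55 on the log2 scale, and in WT cTEC pool 1 by -0.43. Over the 924 such genes, the median KO effect was -0.34 in mTEChi, -0.11 in mTEClo and 0.35 in cTEC. For genes longer than 2000 and up to 4000 bases it was 0.22, 0.21 and 0.12. Among the genes described here, those over 1000 bases had 5 higher and 2 lower of 23 in mTEChi, where 19.1% and 18.1% of all such genes were called, and 19 higher and 0 lower of 23 in cTEC, where 22.6% and 27.9% of all such genes were. Those at or under 1000 bases had 1 higher and 7 lower of 62 in mTEChi (2.68% and 27.6% of all such genes) and 32 higher and 1 lower of 62 in cTEC (20.5% and 18.3%).

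A correction that removed the length trend from each library, chosen after these values were seen, changed several counts. It gave 37 higher and 4 lower in KO cTEC (16.3% and 31.0% of all genes), 33 higher and 1 lower in KO mTEClo (15.4% and 18.5%), and 10 higher and 5 lower in KO mTEChi (11.1% and 24.2%). The number of genes with a lower effect in mTEChi than in cTEC went from 46 to 11 (11.8% of all genes), and the median of that difference from -0.88 to -0.20. The median KO effect in cTEC went from 0.69 to 0.29, where that of all genes was -0.17, and in mTEChi from -0.24 to 0.03, where that of all genes was -0.21. The median difference between the effects in mTEClo and cTEC went from -0.44 to 0.02, so its sign was not kept. Of the 52 genes called in cTEC, 38 were also called after the correction. Which of gene length, RNA quality and genotype set the size of the rise was not tested.

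**Figure D5:**
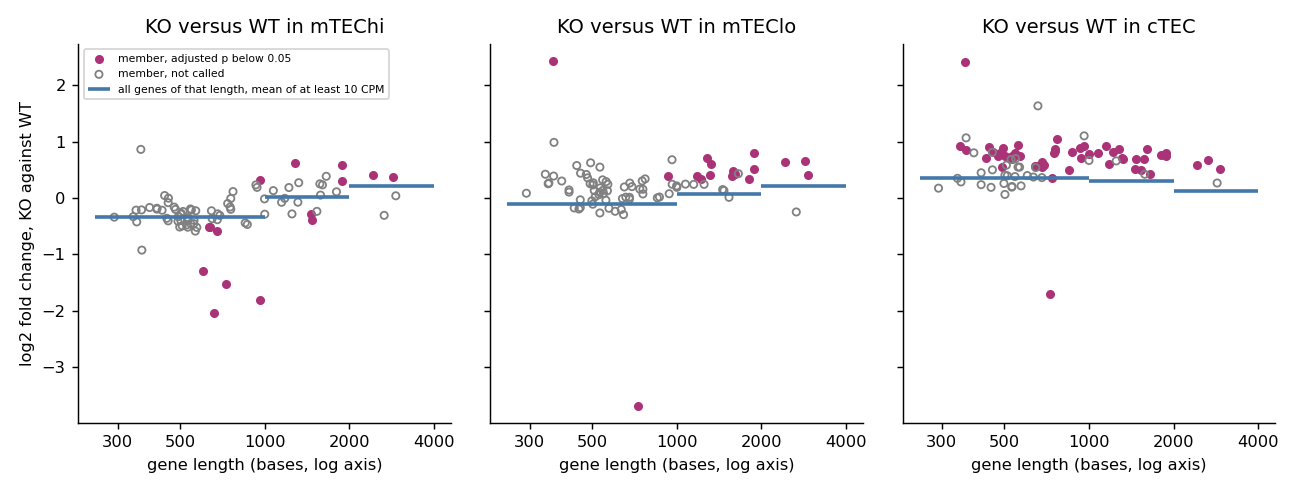
Log2 fold change of KO against WT (vertical axis) by gene length in bases (horizontal axis, log scale) in the 3 subsets; points are the genes described here, filled where the adjusted p was below 0.05, and blue lines are medians of all genes of that length with a mean of at least 10 CPM. In cTEC the genes at or under 1000 bases have a median of 0.66 where all genes of that length have 0.35, and in mTEChi -0.33 where all have -0.34.

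Other parts of mitochondrial and general biosynthesis are given for comparison. Of 13 tested enzymes of the TCA cycle, 7 rose in mTEChi, 10 in mTEClo and 10 in cTEC, where 17.1%, 18.9% and 22.3% of all genes rose, led by Idh3b in mTEChi (0.48) and cTEC (0.82) and by Cs, citrate synthase, in mTEClo (0.79). The 13 respiratory genes encoded in mitochondrial DNA did not follow the nuclear genes throughout. In KO cTEC 4 rose (22.3% of all genes did), and in KO mTEClo 5 fell (15.8%), with log2 fold changes of -0.74 for COX1 and -0.68 for CYTB. In mTEChi their median log2 fold change was -0.31, with 1 gene lower at an unadjusted p below 0.05 that did not pass after adjustment. Of 17 assembly factors of complex IV, 3 were higher in mTEChi and 4 in mTEClo, near the shares of all genes, and 8 in cTEC, with Coa5 called in each. Of 6 for complex III, 2, 4 and 4 were higher, among them Ttc19. For complex I, 2 of 16 rose and 2 fell in mTEChi, 1 fell in mTEClo and 5 rose in cTEC.

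In cTEC, where 22.3% of all genes were called higher, 48 of 78 tested genes of the mitochondrial ribosome rose, as did 32 of 83 of the cytosolic ribosome, with 1 lower, and 17 of 18 of the proteasome core. The other genes of these sets did not pass the test. In mTEChi these sets had 6 higher and 13 lower, 0 higher and 22 lower, and 1 higher and 4 lower, and in mTEClo 5 and 1, 0 and 23, and 1 and 2. Of all genes, 17.1% were higher and 19.3% lower in mTEChi, and 18.9% and 15.8% in mTEClo. Glycolytic genes had 7 higher and 2 lower of 15 in mTEChi, 9 and 1 in mTEClo, and 3 and 2 in cTEC, where Ldha, lactate dehydrogenase, rose (1.13) and Pfkp, a phosphofructokinase, fell (-3.63). These counts are a description of each set and were not compared with each other by a test.

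Across the 6 groups the median of the tested genes ran from 7.08 log2 CPM in KO cTEC and 7.05 in WT mTEChi through 6.78 in KO mTEClo, 6.72 in KO mTEChi and 6.56 in WT mTEClo to 6.40 in WT cTEC. The library medians given above overlapped between each pair of neighbours in that order. The members least like this pattern were Cox4i2 (Pearson r = 0.15 over 6 group means) and Sdha (0.16), chosen after their values were seen. Outside the set, the genes most like it were Gm6581 (0.993), Mrps30 (0.989), a protein of the mitochondrial ribosome, Gstm7 (0.989), a gene without a symbol (0.985) and Gm4199 (0.984). The means share libraries and the order was searched over all genes, so these values are a description.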

How the data were processed

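RNA-seq was done on 18 libraries, 3 per group, with full-length cDNA amplified from low RNA inputs (SMART-Seq kit) and cut by a transposase (Nextera XT), per the labels' protocols. Amplification without molecular identifiers and cutting of short cDNA can affect counts of short genes, and the kits do not mark strand. The authors deposited raw read counts per gene with gene lengths. Per the submitters' processing notes, reads were counted with featureCounts on mm10. The aligner, annotation, strand setting and treatment of multi-mapping reads are not given in the sources used here. Totals of 3554089 to 20054360 counts set the precision of rare isoforms.

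Counts were normalised by TMM and fitted over all 6 groups with edgeR 4.0.16 (quasi-likelihood test, 12 residual degrees of freedom, R 4.3.3), after a filter at a minimum count of 10 that left 19364 genes. Fold changes are log2, CPM uses normalised library sizes, and TPM was computed from counts and deposited lengths. Gene positions and promoters came from RefSeq (GRCm38.p6), with coordinates for all 89 genes. Alternatives were RLE size factors, library totals, DESeq2 1.42.0, no filter, only the compared groups, each library left out, and the pool as a replicate block (fixed, or random in limma-voom, limma 3.58.1). A length correction and the joint removal of KO mTEChi pool 4 and WT cTEC pool 1 were chosen after seeing the data. The fit was tested on simulated data: in KO cTEC, 45.5% of genes changed by 1 on the log2 scale and 14.3% of those changed by 0.5 were recovered. In KO mTEChi these shares were 52% and 4.17%, in WT mTEChi against cTEC 43.3% and 7.14%, and in the interaction of mTEChi and cTEC 26.3% and 1.02%. The changed genes were drawn at random from all tested genes, so the shares are not those of the abundant genes described here. In each run 100 genes per size were changed, and all other genes were set equal across the groups. In the data, 22.3% of all genes were called higher and 26.7% lower in cTEC. With so many calls the adjustment is less strict, so the shares do not say what the tests above could find.

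The subsets of 1 pool number come from the same mice, per the labels, so comparisons of subsets are paired and those of genotypes are not. Deviations of the subsets of a pool correlated by -0.00094 to 0.239 over 18 pairs. Whether pools of 1 genotype differ in ways other than the mice is not given, so p-values measure the spread between these pools. The members and the lists were chosen with earlier results of these data known. Named genes were, per complex, the 2 most abundant, the 3 with the smallest adjusted p in a comparison, called genes with a change of at least 1 on the log2 scale, the restricted isoforms with their broad partners, up to 3 per interaction, those not tested, up to 3 called genes per context list and the 5 genes most like the members' median. One result is not reported here.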

Additional observations from a re-analysis of the deposited data

Results flagged for a closer look

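The effect of Kat7 loss differed between subsets by the interaction test of edgeR. Between mTEChi and cTEC, 46 genes had a called difference (13.2% of all genes were called lower), led by Cox7a2l (-1.004 on the log2 scale), Uqcrfs1 (-0.78) and Atp5pb (-0.80). Between mTEClo and cTEC there were 10, a share near the 9.54% of all genes called lower, led by Cox7a2l (-0.69), Ndufs3 (-0.64) and Ndufs7 (-0.71). Between mTEChi and mTEClo there was 1, Uqcrfs1 (-0.49), where 6.78% of all genes were called lower. All these differences were negative, that is, the KO effect was lower in the first subset named. The KO mTEChi library of pool 4 enters the comparisons with mTEChi and the WT cTEC library of pool 1 those with cTEC, and short genes were low as a whole in both. Between mTEChi and cTEC, 25 genes differed without both libraries (10.6% of all genes were called lower), 32 without KO mTEChi pool 4 alone (10.4%), 23 with only the compared groups fitted (8.63%) and 11 after removal of the gene-length trend (11.8%). Between mTEClo and cTEC, 1 differed after that removal (7.77%), and the median difference went from -0.44 to 0.02. Between mTEChi and mTEClo, the median difference went from -0.43 to -0.21 without KO mTEChi pool 4.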

How the results depend on the processing

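Median changes of the genes kept their direction under the alternatives, except in KO mTEChi, which ran from -0.49 to 0.04 when single libraries were left out and was 0.03 both after removal of the length trend and without KO mTEChi pool 4 and WT cTEC pool 1 together, and in the interaction of mTEClo and cTEC, which was 0.02 after that removal. Counts of called genes moved more. Brackets from here on give the share of all genes called the same way in the same fit. With RLE size factors, KO mTEChi had 3 higher (15%) and WT mTEClo against cTEC 2 lower (14.9%). WT mTEChi against mTEClo had 37 higher (35.2%) and 0 lower (23.7%). Library totals gave 2 lower in WT mTEClo against cTEC (15.6%) and 3 in the interaction of mTEChi and mTEClo (7.3%). DESeq2 gave 38 higher (34.8%) and 0 lower (23.6%) in WT mTEChi against mTEClo and 2 lower in WT mTEClo against cTEC (16.2%). It gave 4 lower in the interaction of mTEChi and mTEClo (8.37%). With no low-count filter, WT mTEChi against cTEC had 1 lower (25.1%) and WT mTEClo against cTEC 5 higher (8.27%) and 2 lower (12.2%). The interaction of mTEChi and mTEClo then had 0 lower (4.63%). With only the compared groups fitted, KO mTEChi had 5 lower (26%), KO mTEClo 0 lower (23%) and WT mTEChi against mTEClo 46 higher (34.6%). WT mTEClo against cTEC had 0 lower (11.6%). The interaction of mTEChi and mTEClo had 1 higher (13.7%) and that of mTEChi and cTEC 23 lower (8.63%).

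With the pool as a fixed replicate block, which pairs the subsets, WT mTEChi against mTEClo had 42 higher (33.4%). The interaction of mTEChi and mTEClo had 6 lower (8.1%), and that of mTEClo and cTEC 1 higher (17.5%) and 21 lower (11.7%). The random replicate block in limma-voom gave 1 higher (6.44%) and 5 lower (7.42%), and 17 lower (12.8%), in these interactions. The block moved no other count by over 1.5 times.

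Removal of the length trend gave 10 higher (11.1%) and 5 lower (24.2%) in KO mTEChi. It gave 33 higher in KO mTEClo (15.4%) and 4 lower in KO cTEC (31%). In WT it gave 45 higher in mTEChi against mTEClo (38.1%) and 4 lower in mTEChi against cTEC (22.8%). In WT mTEClo against cTEC it gave 4 higher (13.4%) and 4 lower (13%). In the interactions it gave 7 lower (mTEChi and mTEClo, 8.52%), 11 (mTEChi and cTEC, 11.8%) and 1 (mTEClo and cTEC, 7.77%). This correction moved the median of all genes by up to 0.14 on the log2 scale. Without KO mTEChi pool 4 and WT cTEC pool 1 together, KO mTEChi had 2 lower (15.8%) and WT mTEChi against cTEC 1 lower (27.6%). WT mTEClo against cTEC had 7 higher (11.4%) and 2 lower (11.9%), and the interaction of mTEChi and cTEC 25 lower (10.6%).

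Leaving out 1 library at a time gave 2 to 7 higher (12.2% to 15.8%) and 1 to 9 lower (12.4% to 15.1%) in KO mTEChi. In KO cTEC it gave 0 to 1 lower (22.3% to 26.1%). In WT it gave 0 to 1 lower in mTEChi against mTEClo (22.6% to 24.8%) and against cTEC (25% to 28.1%). In WT mTEClo against cTEC it gave 4 to 9 higher (9.35% to 13.6%) and 0 to 2 lower (10.4% to 14.7%). In the interaction of mTEChi and mTEClo it gave 0 to 1 higher (4.84% to 6.45%) and 0 to 4 lower (4.57% to 6.4%). For mTEChi and cTEC it gave 29 to 65 lower (9.47% to 14.6%). For mTEClo and cTEC it gave 0 to 1 higher (13.6% to 17.6%) and 8 to 21 lower (6.11% to 11.2%). Of 2218 values of named genes under alternatives, 1856 kept their call, 362 lost it and 0 turned direction. The causes were not tested. Small counts limit the isoforms near 1 CPM.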
